A study of Mus musculus with 10 samples.

Results

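Class 3 semaphorins, their neuropilin co-receptors and their plexin receptors were followed as a listed set of 10 genes by RNA sequencing of NIH3T3, a mouse fibroblast line of embryonic origin. The members are Sema3a, Sema3b, Sema3c, Sema3d, Sema3e, Sema3f, Nrp1, Nrp2, Plxna1 and Plxnd1, found by gene symbol among the 18430 rows of the deposited table. Of the 10, 8 had a row, and each of those 8 reached 1 RPKM (reads relative to the length of the transcript and the size of the library) in all libraries. No row carried the symbol Sema3d or Sema3e alone, and both were not analysed here. A further 987 rows join several gene symbols and were not searched for members, markers or list genes. A gene without a row of its own may therefore stand in a joined row.

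The 10 libraries came from 4 independent clones overexpressing FOXP2-CPED1, named in the series title as an arrangement of FOXP2, from 4 independent clones overexpressing the forkhead transcription factor FOXP2, and from 2 controls. The controls were 1 culture of parental cells and 1 culture carrying the empty vector. With 1 library per clone or control, values of a construct vary from clone to clone. Neither control is labelled as a clone, so clonal derivation and the construct cannot be told apart in a comparison with the control. The sources used here give neither the promoter of the vector nor the species of the introduced sequence. The mouse Foxp2 row stood at 0.0674 to 0.330 RPKM in FOXP2-CPED1 clones, 0.145 to 1.02 in FOXP2 clones and 0.0785 to 0.0798 in controls, and whether the introduced sequence is counted in that row is not known, so it does not check the labels.

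Summed RPKM ranged from 794682 to 944602 per library, and Spearman correlations between libraries over rows that name a gene ranged from 0.936 to 0.980. Steps among low values put the relative depth of the libraries at 0.913 to 1.32 of the parental library, while absolute depth is unknown. These are rough estimates from the most frequent ratio to the parental library among rows with low values. That ratio was met by 108 of 740 such rows in FOXP2-CPED1 clone 1, but by 13 of 754 in FOXP2 clone 3. In FOXP2-CPED1 clone 4, which had the 1.32, it was met by 18 of 1028. Both rows of mitochondrially encoded genes were at 0 in FOXP2-CPED1 clone 3, FOXP2 clone 2 and FOXP2 clone 4, so the fold changes were also computed without these 3 libraries. Of 10 fibroblast markers, 9 had their own row, and all 9 reached 1 RPKM. They summed to 6478 to 9233 RPKM in FOXP2-CPED1 clones, 6073 to 8526 in FOXP2 clones and 9239 to 9346 in controls. Of the lists for other cell types, 2 of 6 neuron markers had a row, with Syn1 at 9.30 to 14.5 RPKM in every library and Stmn2 at or below 0.880. The epithelial Cdh1 reached up to 2.37 RPKM, the muscle marker Des up to 3.57 and the endothelial Cdh5 up to 0.536, each the only 1 of 5 on its list with a row. None of the 5 blood markers had a row of its own.

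Class 3 semaphorins are secreted proteins that guide growing axons and migrating cells. They bind a neuropilin, which has a short cytoplasmic tail, and the neuropilin holds the ligand to a plexin, whose cytoplasmic part acts on small GTPases and so on the cytoskeleton and on adhesion. Outside the nervous system they are known for roles in blood vessel growth, in the outflow tract of the heart and in the movement of fibroblasts and tumour cells.

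Among the ligands, Sema3c had the largest fold change against the control with either construct. Sema3c, which acts through both neuropilins and is needed in the mouse for division of the cardiac outflow tract, had a mean RPKM 3.42 times that of the controls in FOXP2-CPED1 clones and 3.48 times in FOXP2 clones. Its promoter is shown because it is the only member that passed the test, and that of Sema3a because it has the lowest mean level of the measured ligands. Both are on chromosome 5 and are RefSeq sequences on GRCm38.p6, plus strand, from 250 bases before to 50 bases after the annotated start, with CG dinucleotides in capitals. Sema3c lies at chr5:17574566-17574865 and Sema3a at chr5:13396534-13396833.
Sema3c: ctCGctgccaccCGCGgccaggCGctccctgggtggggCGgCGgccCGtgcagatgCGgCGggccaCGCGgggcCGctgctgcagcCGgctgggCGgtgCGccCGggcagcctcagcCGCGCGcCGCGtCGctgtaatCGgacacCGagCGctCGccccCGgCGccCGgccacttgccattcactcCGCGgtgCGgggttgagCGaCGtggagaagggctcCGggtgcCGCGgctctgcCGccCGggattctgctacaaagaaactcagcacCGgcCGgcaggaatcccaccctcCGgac
Sema3a: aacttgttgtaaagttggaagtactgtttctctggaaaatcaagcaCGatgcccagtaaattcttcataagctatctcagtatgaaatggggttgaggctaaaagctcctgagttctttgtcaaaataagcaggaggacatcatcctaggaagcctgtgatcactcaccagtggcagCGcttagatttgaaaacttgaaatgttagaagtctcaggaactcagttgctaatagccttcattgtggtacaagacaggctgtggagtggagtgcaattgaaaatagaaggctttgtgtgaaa

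The Sema3c window held 42 CG dinucleotides and 75.7% G or C, and 3.03% of 32851 mouse promoters of the same length held as many or more. The Sema3a window held 2 CG dinucleotides and 41.3% G or C, and 23.3% of promoters held as many or fewer. Promoters of 7 members were matched by symbol, and Nrp2 with 37 CG dinucleotides came next to Sema3c among them. The forkhead letters TGTTTAC, searched on both strands, stood in 3.65% of all promoters and in 0 of the 7. The letters CAAATT, searched in the same way, stood in 3602 of the 32851 promoters and, among the 7, in that of Sema3e. The end of one motif can share a base with the start of the other, but not in these 7 windows, where TGTTTAC was not found. These matches describe letters in one window and were not tested against expression.

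Sema3c stood at 46.7, 43.2, 59.8 and 62.7 RPKM in FOXP2-CPED1 clones 1 to 4, at 40.5, 35.5, 68.4 and 71.5 RPKM in FOXP2 clones 1 to 4, and at 13.6 RPKM in parental and 17.4 RPKM in vector cells. All 8 clones lay above both controls, while the values of the constructs overlapped. Groups that did not overlap, with the construct higher, were found for 12.2% of all 12842 tested rows with FOXP2-CPED1 and for 9.13% with FOXP2. Mean levels were 53.1 ± 9.59 RPKM in FOXP2-CPED1 clones and 54.0 ± 18.6 in FOXP2 clones (SD, n = 4 each), against 15.5 ± 2.70 in controls (n = 2). In bulk RNA, more cells with a transcript and more transcript per cell cannot be told apart.

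**Figure D1:**
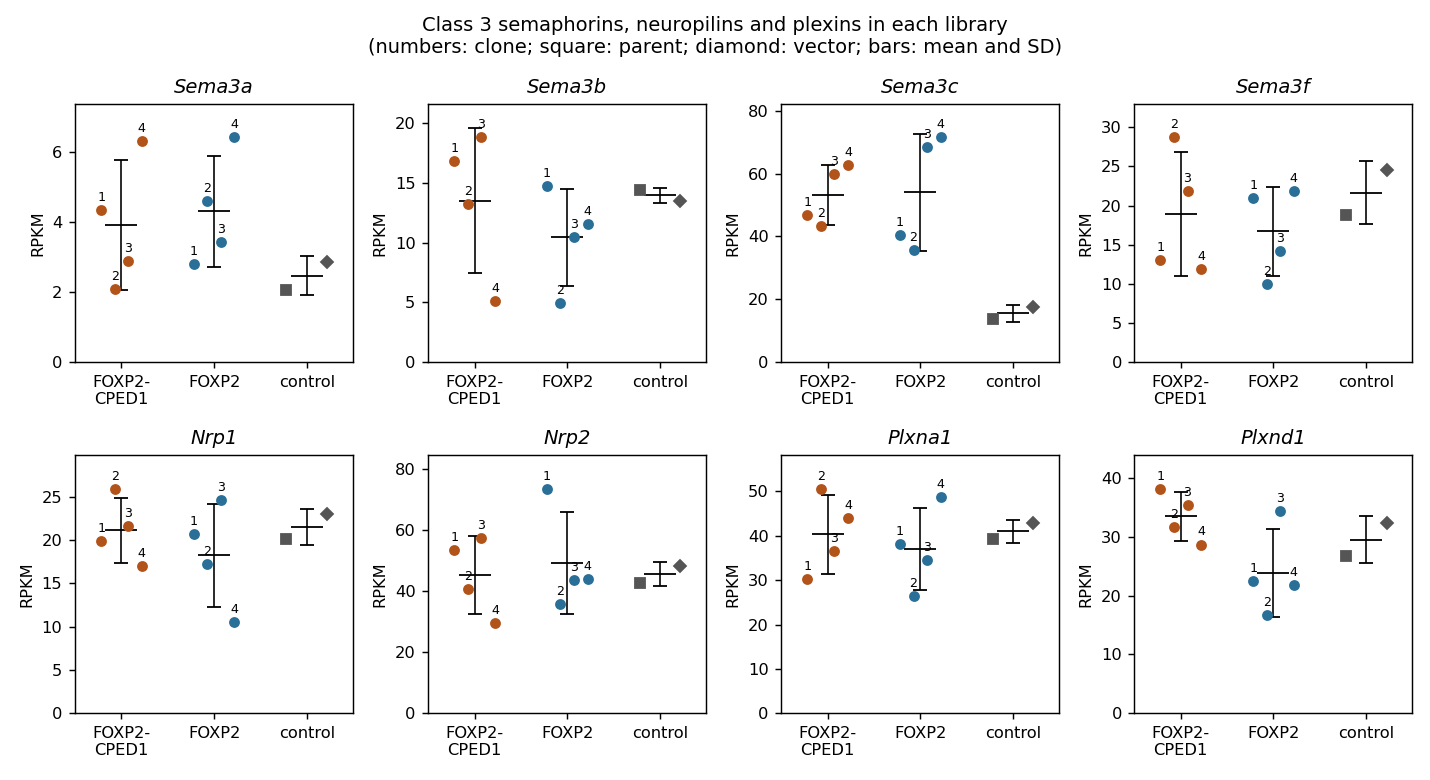
RPKM (vertical axes, from 0) of the 8 measured members in FOXP2-CPED1 clones, FOXP2 clones and controls, with the mean and SD of each group as bars, clone numbers beside the points, a square for parental and a diamond for vector cells. In Sema3c the 8 clones lie between 35.5 and 71.5 RPKM, above both controls, while in the other 7 members the values of each construct overlap those of the controls.

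With FOXP2-CPED1 the log2 fold change of Sema3c on the log2(RPKM + 1) scale was 1.70 ± 0.30 (SE, 95% interval 1.04 to 2.36) and narrowly missed the threshold of 0.05 (limma, adjusted p = 0.0506). With FOXP2 it rose by 1.68 ± 0.30 (95% interval 1.02 to 2.34) and narrowly passed (limma, adjusted p = 0.0475). Both comparisons use the same 2 control libraries, so they are not independent. Between the constructs the difference was 0.02 ± 0.24 (FOXP2-CPED1 minus FOXP2, 95% interval -0.52 to 0.56, limma adjusted p = 0.9998). Passing in one comparison and missing in the other therefore goes with nearly equal fold changes. In a two-sided exact permutation test over libraries, Sema3c had p = 0.0667 in each comparison with the control, the smallest that 4 libraries against 2 allow. The call with FOXP2 was kept in 3 of 20 alternative settings and lost in 17. With FOXP2 it was lost without parental cells (log2 fold change 1.51), without vector cells (1.85), without FOXP2 clone 1 (1.79), clone 3 (1.55) or clone 4 (1.53), and without any 1 of the FOXP2-CPED1 clones (1.68 each time). With FOXP2-CPED1 the call was gained in 5 of 20 settings, among them those without FOXP2 clone 2, clone 3 or clone 4, each with a log2 fold change of 1.70. With FOXP2-CPED1 clone 3, FOXP2 clone 2 and FOXP2 clone 4 left out, whose mitochondrial genes read 0, the log2 fold change was 1.64 with FOXP2-CPED1 and 1.71 with FOXP2, with adjusted p = 0.119 and 0.132 (limma). No library from this set of 3 is a control, so no value within it could be had.

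Sema3c was the only member called in any of the 3 comparisons. Of all 12842 rows, 0.35% were called with FOXP2-CPED1 and 0.436% with FOXP2, made up of 0.0234% higher and 0.327% lower with FOXP2-CPED1 and 0.0389% higher and 0.397% lower with FOXP2. Thus 0 of 8 measured members were called with FOXP2-CPED1 and 1 of 8 with FOXP2. Between the constructs 0% of rows and 0 of 8 members were called by limma, while 2.16% of rows (278) had an unadjusted p under 0.05. In no member were the values of the constructs without overlap, beside 1.38% of all rows (0.576% higher and 0.802% lower in FOXP2-CPED1 clones). The median log2 fold change of the 8 members was -0.04 with FOXP2-CPED1 and -0.23 with FOXP2, beside 0.00 and 0.02 over all tested rows. It was 0.14 between the constructs, beside -0.01 over all tested rows.

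**Figure D2:**
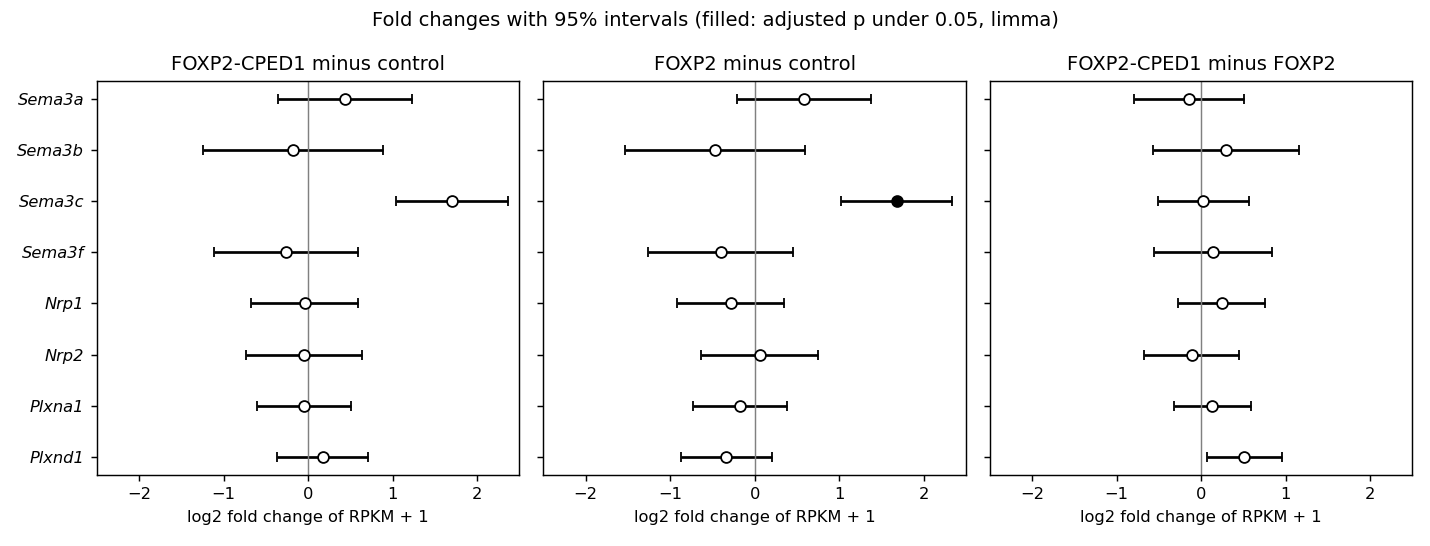
Log2 fold changes of RPKM + 1 (horizontal axes) with 95% intervals for each measured member, for FOXP2-CPED1 minus control, FOXP2 minus control and FOXP2-CPED1 minus FOXP2, with a filled point where the adjusted p was under 0.05 (limma). Sema3c stands at 1.70 and 1.68 against the control and at 0.02 between the constructs, and its point is filled for FOXP2 minus control.

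The highest of the measured ligands was not the same in clones and controls. Ranks and shares come from the same values as the fold changes and are no further test. RPKM is scaled by transcript length, so levels of different genes can be set side by side. Sema3c was the highest of the 4 measured ligand members in 4 of 4 FOXP2-CPED1 clones, 4 of 4 FOXP2 clones and 0 of 2 controls. Sema3f was the highest in both controls, and Sema3c was above Sema3b in vector but not in parental cells. Sema3c held 49.5 to 72.9% of the summed RPKM of the 4 ligands in FOXP2-CPED1 clones and 51.3 to 70.8% in FOXP2 clones, against 27.8 to 29.9% in controls. The sum itself was 80.9 to 103.4 RPKM in FOXP2-CPED1 clones and 55.0 to 111.4 in FOXP2 clones, against 48.9 and 58.3 in parental and vector cells. Without Sema3c, the other ligands summed to 23.3 to 44.1 RPKM in FOXP2-CPED1 clones, 19.5 to 39.8 in FOXP2 clones and 35.3 to 40.9 in controls, so that these ranges overlapped.

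**Figure D3:**
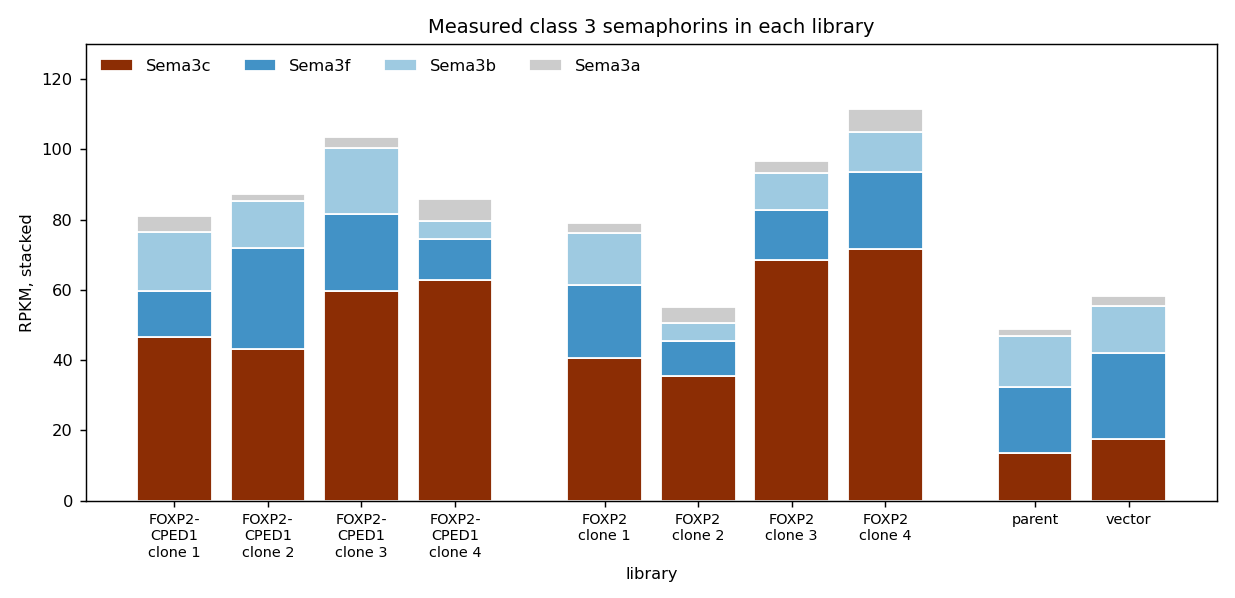
Stacked RPKM (vertical axis, from 0) of Sema3c, Sema3f, Sema3b and Sema3a in each library, with FOXP2-CPED1 clones, FOXP2 clones and then parental and vector cells. The Sema3c part makes up 49.5% or more of the stack in every clone, and 29.9% or less in the controls.

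Sema3f, a repellent ligand that acts mainly through Nrp2, stood at 13.1, 28.7, 21.9 and 11.9 RPKM in FOXP2-CPED1 clones 1 to 4, at 21.0, 9.92, 14.2 and 21.9 in FOXP2 clones 1 to 4, and at 18.8 in parental and 24.5 in vector cells. The constructs and the controls overlapped, and the lowest value was in FOXP2 clone 2. Its log2 fold change was -0.26 ± 0.38 with FOXP2-CPED1 and -0.40 ± 0.38 with FOXP2 (limma, adjusted p = 0.926 and 0.835).

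Sema3b, a ligand of both neuropilins that lies near Sema3f on chromosome 9, stood at 16.9, 13.2, 18.8 and 5.08 RPKM in FOXP2-CPED1 clones 1 to 4. In FOXP2 clones 1 to 4 it stood at 14.8, 4.98, 10.5 and 11.5 RPKM, against 14.4 in parental and 13.5 in vector cells. FOXP2-CPED1 clone 4 and FOXP2 clone 2 were both far below the other libraries, so the largest difference lay within the constructs. The log2 fold change was -0.18 ± 0.48 with FOXP2-CPED1 and -0.47 ± 0.48 with FOXP2 (limma, adjusted p = 0.968 and 0.848). Sema3f was also lowest in this pair of clones, although FOXP2-CPED1 clone 1 and FOXP2 clone 3 lay below both controls too. This pair also had the lowest values of 6 of the 9 fibroblast markers measured (Col1a2, Col3a1, Col6a1, Fn1, Pdgfra and Pdgfrb) but not of Col1a1 and Thy1, and Vim was higher in the pair than in the other 6 clones. The collagen gene Col3a1 stood at 208.3 RPKM in FOXP2-CPED1 clone 4 and at 169.9 in FOXP2 clone 2, against 691.8 in parental and 742.9 in vector cells. The pair was picked for its low Sema3b, and the share of all rows in which it is lowest was not computed. Over all tested rows, the deviations of this pair from their construct means were correlated at 0.393, the highest between clones of different constructs. The low markers are therefore not a result about fibroblast genes alone. The part of such clone differences in the values of the ligands was not tested.

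Sema3a, the axon repellent that acts through Nrp1 and A-type plexins, had the lowest mean of the measured members, although it exceeded Sema3b in FOXP2-CPED1 clone 4. It stood at 4.35, 2.09, 2.88 and 6.31 RPKM in FOXP2-CPED1 clones 1 to 4, at 2.80, 4.59, 3.42 and 6.41 in FOXP2 clones 1 to 4, and at 2.07 in parental and 2.86 in vector cells. FOXP2-CPED1 clone 4 and FOXP2 clone 4 were the highest, and each construct had a clone below the vector cells. The log2 fold change was 0.44 ± 0.36 with FOXP2-CPED1 and 0.58 ± 0.36 with FOXP2 (limma, adjusted p = 0.865 and 0.727).

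The neuropilins did not pass the test in any comparison. Nrp2, which also serves as a co-receptor of vascular endothelial growth factors, exceeded Nrp1 in all 10 libraries. It stood at 53.7, 40.7, 57.6 and 29.5 RPKM in FOXP2-CPED1 clones 1 to 4, at 73.6, 35.9, 43.8 and 43.9 in FOXP2 clones 1 to 4, and at 42.8 in parental and 48.3 in vector cells. FOXP2-CPED1 clone 4 was the lowest and FOXP2 clone 1 the highest, with the controls between them. The log2 fold change was -0.05 ± 0.31 with FOXP2-CPED1 and 0.06 ± 0.31 with FOXP2 (limma, adjusted p = 0.990 and 0.979).

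Nrp1, the main neuropilin for Sema3a, stood at 19.9, 25.9, 21.7 and 17.0 RPKM in FOXP2-CPED1 clones 1 to 4, at 20.7, 17.2, 24.6 and 10.6 in FOXP2 clones 1 to 4, and at 20.1 in parental and 23.0 in vector cells. FOXP2 clone 4 was the lowest and stood below all other libraries. The log2 fold change was -0.04 ± 0.28 with FOXP2-CPED1 and -0.28 ± 0.28 with FOXP2 (limma, adjusted p = 0.993 and 0.846). The ratio of Nrp2 to Nrp1 was 1.57 to 2.70 in FOXP2-CPED1 clones and 1.78 to 4.15 in FOXP2 clones, against 2.10 to 2.13 in controls.

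Of the plexins, Plxnd1, a receptor of vessels and of the outflow tract that binds Sema3e directly and Sema3c with a neuropilin, differed most between the constructs. It stood at 38.1, 31.6, 35.3 and 28.6 RPKM in FOXP2-CPED1 clones 1 to 4, at 22.5, 16.7, 34.3 and 21.7 in FOXP2 clones 1 to 4, and at 26.7 in parental and 32.3 in vector cells. FOXP2 clone 3 overlapped the FOXP2-CPED1 clones, while the other 3 FOXP2 clones lay below all of them and below both controls. The log2 difference of FOXP2-CPED1 minus FOXP2 was 0.51 ± 0.20 (95% interval 0.07 to 0.95). It had an unadjusted p = 0.0273 and an adjusted p = 0.9998 (limma), and p = 0.0857 in a two-sided exact permutation test, in which 4 libraries against 4 can reach 0.0286. Against the control, the log2 fold change was 0.17 ± 0.24 with FOXP2-CPED1 and -0.34 ± 0.24 with FOXP2 (limma, adjusted p = 0.923 and 0.774).

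Plxna1, the A-type plexin that pairs with neuropilins in growth cone collapse, stood at 30.2, 50.6, 36.7 and 43.9 RPKM in FOXP2-CPED1 clones 1 to 4, at 38.2, 26.4, 34.5 and 48.7 in FOXP2 clones 1 to 4, and at 39.2 in parental and 42.9 in vector cells. It varied least of the 8 members, 1.92-fold between the highest and the lowest library, where Sema3c varied 5.26-fold. The log2 fold change was -0.05 ± 0.25 with FOXP2-CPED1 and -0.18 ± 0.25 with FOXP2 (limma, adjusted p = 0.988 and 0.896). An opposite-strand gene, Gm26811, overlaps an exon of Plxna1 in the GENCODE annotation, and Mir1903 lies in an exon of Nrp1. The strand setting of the counting is not given, so reads in the overlap with Gm26811 cannot be assigned to a strand. Mir1903 is on the same strand as Nrp1, where a strand setting would not separate the reads. No 50-base stretch of any member's annotated transcripts occurred in those of the 30 other semaphorin, plexin and neuropilin genes.

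No member passed between the constructs after adjustment (limma), and the intervals give the range of differences that the values allow. For FOXP2-CPED1 minus FOXP2, the 95% intervals of the log2 difference were -0.79 to 0.51 for Sema3a, -0.57 to 1.16 for Sema3b and -0.55 to 0.84 for Sema3f. They were -0.27 to 0.76 for Nrp1, -0.67 to 0.45 for Nrp2 and -0.32 to 0.58 for Plxna1. These intervals are not adjusted for the number of rows tested, so they do not give the smallest difference that the test could detect.

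Between the controls, each with 1 library and so with no replicate check, vector cells were at 0.936 (Sema3b) to 1.38 (Sema3a) times the parental level in the 8 members. For Sema3c the ratio of vector to parental cells was 1.28. Each clone, set against the mean of the controls, had 2.78 to 4.04 times as much Sema3c with FOXP2-CPED1 and 2.29 to 4.61 times as much with FOXP2.

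Further genes of semaphorin signalling were taken from 5 lists with 79 genes in all, of which 55 had a row of their own and 51 were tested. None of the 51 passed in any of the 3 comparisons (limma), beside the 0.35%, 0.436% and 0% of all rows given above. Library quality weights called 5 of the 51 with FOXP2-CPED1 and 7 with FOXP2, beside 7.23% and 16.3% of all rows in that fit. At an unadjusted p under 0.05, met by 7.28% of all rows with FOXP2-CPED1 and 8.52% with FOXP2, stood 1 of 9 other semaphorins with FOXP2-CPED1 and 2 with FOXP2, and 1 of 5 other plexins with either construct. The same was true of 1 of 7 co-receptors and vascular endothelial growth factor genes with FOXP2-CPED1 and 0 with FOXP2. It held for 2 of 26 signal transduction genes with FOXP2-CPED1 and 1 with FOXP2, for 0 of 4 processing proteases, and for 0 in all lists between the constructs. List medians of the log2 fold change lay between -0.18 and 0.07 with FOXP2-CPED1 and between -0.17 and 0.18 with FOXP2.

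Of the other plexins, Plxnb2, a receptor of class 4 semaphorins, was the most abundant, with 105.5 ± 13.4 RPKM in FOXP2-CPED1 clones, 98.6 ± 11.3 in FOXP2 clones (SD, n = 4 each) and 110.3 ± 2.61 in controls (n = 2). Plxna3 and Plxna2 followed, with means over all libraries of 7.81 and 4.95 RPKM. Plxna4, an A-type plexin that answers to Sema3a in neurons, had the largest fold change in the 5 lists and was named after its values were seen. It stood at 0.575, 0.883, 1.00 and 0.536 RPKM in FOXP2-CPED1 clones 1 to 4, at 2.25, 0.828, 0.332 and 1.44 in FOXP2 clones 1 to 4, and at 3.56 in parental and 4.16 in vector cells. All 8 clones lay below both controls. With each construct taken by itself, its clones lay below both controls in 13.3% of all rows with FOXP2-CPED1 and 10.4% with FOXP2. The log2 fold changes of Plxna4 were -1.48 ± 0.32 with FOXP2-CPED1 and -1.21 ± 0.32 with FOXP2, and neither passed (limma, adjusted p = 0.122 and 0.217). With FOXP2-CPED1 Plxna4 passed in 3 of 19 alternatives, with quality weights (limma, adjusted p = 0.00592), with only the 2 arms compared (0.0353) and without FOXP2 clone 3 (0.0489), and with FOXP2 in 1 of 19, with quality weights (0.0402).

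Among the other semaphorins, the membrane-bound Sema4c, Sema4b and Sema6b were the most abundant, with means over all libraries of 8.28, 7.49 and 3.64 RPKM. Sema4b, named after its values were seen, stood at 8.11 ± 0.665 RPKM in FOXP2-CPED1 clones and 7.98 ± 1.94 in FOXP2 clones (SD, n = 4 each), against 5.24 ± 0.509 in controls (n = 2). Its lowest clone was at 6.13 RPKM, above both controls, as were the clones in 12.2% of all rows with FOXP2-CPED1 and 9.13% with FOXP2. Neither comparison passed (limma, adjusted p = 0.525 and 0.489), while FOXP2-CPED1 passed with quality weights (0.0257). Other list genes, among them Sema5a, Vegfa, Flt1 and Rhod, also had all clones on one side of both controls. Sema5a stood at 1.32 to 3.26 RPKM in FOXP2-CPED1 clones and 1.36 to 2.88 in FOXP2 clones, against 0.801 and 0.918 in parental and vector cells. Sema3g, the remaining class 3 semaphorin of the mouse, stayed at or below 0.609 RPKM in every library and was not tested.

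Of the co-receptor list, the integrin subunit Itgb1 had a mean over all libraries of 271.1 RPKM, the growth factor Vegfa, a ligand of neuropilins, 82.3 and the adaptor Gipc1, which binds neuropilin tails, 55.4. Vegfa stood at 65.45 to 110.0 RPKM in FOXP2-CPED1 clones and 64.46 to 129.6 in FOXP2 clones, above the controls at 61.95 and 62.09. Flt1 of the same list stood at 1.92 to 4.36 RPKM in FOXP2-CPED1 clones and 0.471 to 6.11 in FOXP2 clones, below the controls at 6.785 and 7.346. Of the signal transduction genes, the small GTPases Rac1, Rap1b and Rras were the highest, with means of 150.7, 79.3 and 77.1 RPKM. Rnd3, a small GTPase, was named after its values were seen. It stood at 21.4 ± 5.75 RPKM in FOXP2-CPED1 clones and 21.1 ± 4.25 in FOXP2 clones (SD, n = 4 each), against 35.8 ± 0.725 in controls (n = 2), without passing (limma, adjusted p = 0.461 and 0.372) except with quality weights (0.0196 and 0.00965). Of the proteases, Adam10, Adamts1, which can cleave Sema3c, and Adam17 had means of 59.4, 22.0 and 20.0 RPKM.

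**Figure D4:**
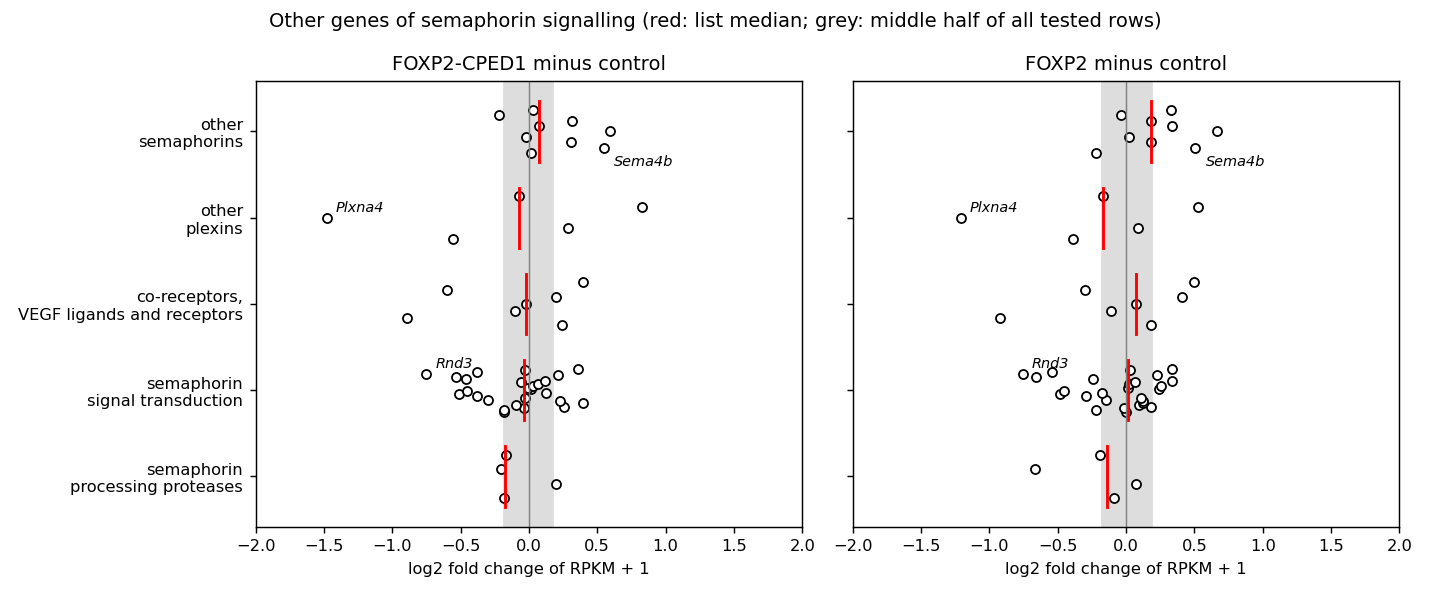
Log2 fold changes of RPKM + 1 (horizontal axes) of the 51 tested genes of 5 semaphorin signalling lists, for FOXP2-CPED1 minus control and FOXP2 minus control, with list medians in red and the interquartile range of all tested rows in grey. None of these genes passed the test, and Plxna4 stands lowest in both panels, at -1.48 and -1.21.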

How the data were processed

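Per the file headers, the authors deposited 1 table of RPKM values with a column for each of 10 libraries. HISAT2, StringTie and mm9 are named in the submitters' processing notes, while the sources used here do not give versions, annotation, strand setting or filters. Every row of the table reaches at least 0.500 RPKM in some library. Rows that name no gene (3581, with 3.37 to 4.54% of the summed RPKM) were left out, and of several rows with one symbol that of the highest mean was used. A row was tested if it reached 1 RPKM in at least 2 libraries, which left 12842 rows.

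Values were transformed as log2(RPKM + 1), which understates the changes of low genes, and fitted with limma 3.58.1 in R 4.3.3 (arms FOXP2-CPED1, FOXP2 and control, all 10 libraries, trend on the mean), after a test on simulated data. P-values are two-sided with Benjamini-Hochberg adjustment over all tested rows. They rest on the spread between libraries within the arms, which comes mostly from the clones, as parental and vector cells have 1 library each. Exact permutation tests used scipy 1.17.1. No counts were given, so no counting interval was computed.

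The members, gene lists, tests and named genes were chosen with earlier results of these data known. All members were named. From each list, genes past the threshold or else the 3 with the highest mean were named, and for Sema3c the 3 rows with the most similar profile. Alternatives were other pseudocounts (0.1 and 0.25), filters (none, mean of 5 RPKM), scalings, fits and weights, each library left out, clone numbers as a block, and, chosen after seeing the data, leaving out the 3 libraries whose mitochondrial rows were at 0.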

Additional observations from a re-analysis of the deposited data

How the results depend on the processing

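Sema3c kept a positive log2 fold change against the control in all 20 alternatives with either construct, from 1.54 to 1.87 with FOXP2-CPED1 and from 1.43 to 1.86 with FOXP2. Its adjusted p ran from 0.00118 to 0.669 with FOXP2-CPED1 and from 0.00109 to 0.554 with FOXP2 (limma). The number of members called with FOXP2-CPED1 was 1 with library quality weights and with only the 2 arms compared, and 0 to 1 when single libraries were left out. With FOXP2 it was 0 with a pseudocount of 0.1 or 0.25, with no filter, quantile normalization, scaling by median ratios, no trend or only the 2 arms compared, and with the 3 libraries that read 0 in mitochondrial genes left out, an alternative chosen after seeing the data. It was 0 without parental or vector cells, and 0 to 1 over the libraries left out. The cause was not tested. Over all genes, quality weights called 929 with FOXP2-CPED1 (343 higher) and 2095 with FOXP2 (1013 higher), against 45 (3 higher) and 56 (5 higher) as reported, and 4 between the constructs. The other alternatives called 0 to 65 with FOXP2-CPED1, 2 to 64 with FOXP2 and 0 to 1 between the constructs, and the low ends against the control came without parental cells. Signs turned for members that had not passed. With quality weights the log2 fold change became 0.0142 for Nrp1, 0.130 for Nrp2 and 0.139 for Sema3b with FOXP2-CPED1 against the control, and -0.0147 for Plxna1, 0.0497 for Sema3a and -0.0550 for Sema3f between the constructs. Without the 3 libraries it became 0.0662 for Nrp1 with FOXP2, and between the constructs -0.121 for Nrp1, 0.270 for Sema3a, -0.219 for Sema3b, -0.0690 for Sema3c and -0.0588 for Sema3f. Without vector cells it became 0.0559 for Nrp1, 0.0371 for Nrp2 and 0.0158 for Plxna1 with FOXP2-CPED1, and without parental cells -0.0249 for Nrp2 with FOXP2. Over single libraries left out, it ranged with FOXP2-CPED1 from -0.137 to 0.0560 for Nrp1, -0.177 to 0.138 for Nrp2, -0.163 to 0.0791 for Plxna1 and -0.371 to 0.197 for Sema3b, and with FOXP2 from -0.146 to 0.193 for Nrp2. Between the constructs it ranged from -0.242 to 0.0973 for Nrp2, -0.0151 to 0.271 for Plxna1, -0.360 to 0.0547 for Sema3a, -0.152 to 0.178 for Sema3c and -0.0793 to 0.321 for Sema3f. Clone numbers were not taken to pair the libraries in the main fit. Same-numbered clones had deviations correlated at -0.0357, -0.24, 0.281 and 0.166, and differently numbered clones at -0.428 to 0.393. With the clone number as a replicate block, 0 members were called and Sema3c differed by 0.02 between the constructs.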

Other observations

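The 3 tested rows whose centred log2(RPKM + 1) profile over the 10 libraries came closest to that of Sema3c, out of 12834 rows searched, were Hist1h4c, Gm16867 and Slc25a37. Their root mean square differences from Sema3c were 0.243, 0.369 and 0.412 on the log2 scale. Hist1h4c, a replication-dependent histone gene, stood at 1.43, 1.47, 3.19 and 3.02 RPKM in FOXP2-CPED1 clones 1 to 4 and at 2.31, 1.66, 2.86 and 2.96 in FOXP2 clones 1 to 4, while it was listed at 0 in parental cells and stood at 0.604 in vector cells. The predicted gene Gm16867 stood at 118.6 ± 9.13 RPKM in FOXP2-CPED1 clones and 124.3 ± 21.0 in FOXP2 clones (SD, n = 4 each), against 56.9 ± 1.49 in controls (n = 2). Slc25a37, a mitochondrial iron importer, stood at 4.52 ± 0.418 and 4.12 ± 1.29 RPKM in the clones of FOXP2-CPED1 and of FOXP2 (SD, n = 4 each), against 1.90 ± 0.866 in controls (n = 2). Hist1h4c had means of 2.28 RPKM in FOXP2-CPED1 clones and 2.45 in FOXP2 clones, against 0.302 in controls. As ratios of RPKM these are larger changes than those of Sema3c. The closeness of Hist1h4c thus depends on the 1 RPKM added before the log2, which understates changes at such low levels. The profiles share their libraries, and the likeness is a description.

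In the GENCODE annotation, which is on a later build (GRCm38) than the deposited table, Sema3a and Sema3c share chromosome 5 with Sema3d and Sema3e. None of the 3 nearest protein-coding genes on either side of Sema3c carried a row of its own. Sema3b and Sema3f lie on chromosome 9 with Gnai2 (a G protein subunit), Slc38a3 and Gnat1 between them, of which only Gnai2 had a row of its own. Gnai2 stood at 513.3 ± 76.5 RPKM in FOXP2-CPED1 clones and 479.1 ± 40.5 in FOXP2 clones (SD, n = 4 each), against 573.6 ± 98.8 in controls (n = 2), without passing in either comparison (limma, adjusted p = 0.895 and 0.761). Itgb1, the neighbour of Nrp1 on chromosome 8, did not pass either (adjusted p = 0.992 and 0.942).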
